A study of Mus musculus with 9 samples.

Results

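The brains of aged mice given a B3GNT3 virus were compared with the brains of young mice given the control virus, to describe which cell classes and genes still differed from young after treatment. Members were taken by their group labels: 3 aged AAV-B3GNT3 libraries and 3 young AAV-EGFP libraries, 6 of the 9 libraries of the study, each from the pooled cortex and hippocampus of 1 wild-type C57BL/6 male mouse. Young mice were 5 months old and aged mice 19 months old when the tissue was taken, 8 weeks after a single retro-orbital injection. Both viruses used the PHP.V1 capsid, which enters brain vessels, and a short CLDN5 promoter that directs expression to endothelial cells. The control virus carried EGFP and the treatment virus EGFP joined through a P2A peptide to B3GNT3. The study's methods give the National Institute on Aging rodent colony as the source of aged mice and Jackson Laboratories as that of young mice. Age, colony of origin and virus cargo all differed between the groups, so their effects cannot be told apart in this contrast. The aged mice given EGFP were not used.

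B3GNT3 is a Golgi enzyme that adds N-acetylglucosamine to core 1 O-glycans, the short sugar chains that cover mucin-domain proteins of the endothelial surface, the glycocalyx. Ageing of the brain is known for activated glia, complement and interferon genes in glia and vessels, slower renewal of oligodendrocytes and weaker protein quality control. Nuclear RNA was counted as unique molecular identifiers (UMIs), 1 per captured molecule, which reports transcripts in and around the nucleus and little of the cytoplasmic pool.

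Of 51496 barcodes in the 6 libraries, 49521 nuclei had 200 to 5000 detected genes and at most 10% mitochondrial UMIs, with 6005 to 10017 nuclei and 38378227 to 67716623 UMIs per library. The median nucleus held 4003, 5272 and 5582 UMIs in the young libraries and 3865, 3233 and 4627 UMIs in the aged AAV-B3GNT3 libraries. Pairs of libraries shared 13 to 37 cell barcodes. Clusters were named from marker genes, which gave 10 classes with enough nuclei to test. Shares and classes rest on the 46554 nuclei left after 2967 presumed doublets were removed. One class carried markers of striatal projection neurons although the labels give hippocampus and cortex. A cluster of 1929 nuclei with markers of both glutamatergic and GABAergic neurons stayed unnamed by a rule added after its markers were seen. The delivered transgene was not analysed here. The mouse gene B3gnt3 gave 15, 8 and 5 UMIs in all nuclei of the young libraries and 8, 9 and 11 UMIs in those of the aged AAV-B3GNT3 libraries. In brain endothelial cells it gave 6, 3 and 1 UMIs in young and 0, 3 and 4 UMIs in aged AAV-B3GNT3 libraries, where a count of 0 among 191915 UMIs allows up to 15.6 CPM. The libraries labelled AAV-B3GNT3 were not set apart by this gene at this depth. Whether reads of the transgene would count towards the mouse gene is not known here. By staining of isolated microvessels, the study reported more B3GNT3 in aged mice given AAV-B3GNT3 than in aged mice given AAV-EGFP.

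Oligodendrocytes and microglia made up larger shares of the aged AAV-B3GNT3 libraries, without overlap between the groups. Oligodendrocytes, which wrap axons in myelin, were 28.2, 20.4 and 23% of nuclei in the young libraries and 33.8, 30.5 and 35.3% in the aged AAV-B3GNT3 libraries, a difference of 9.27 percentage points. Microglia, the resident immune cells of the brain, were 2.7, 2.33 and 2.64% of nuclei in the young libraries and 4.28, 4.04 and 3.38% in the aged AAV-B3GNT3 libraries. Both differences gave an exact two-sided permutation p of 0.10, the smallest that 3 against 3 allows, and an adjusted p of 0.40 over the 12 classes compared. The unnamed nuclei ran the other way, at 8.32, 10.7 and 7.93% of nuclei in the young libraries and 3.05, 3.6 and 7.3% in the aged AAV-B3GNT3 libraries. Shares sum to 100%, so a rise in oligodendrocytes lowers the others. Excitatory neurons (29.0 ± 4.28% in young against 25.7 ± 1.69% in aged AAV-B3GNT3 libraries, SD, n = 3 each), inhibitory neurons (6.12 ± 0.345% against 6.11 ± 0.117%), oligodendrocyte precursors (3.89 ± 1.33% against 3.46 ± 0.753%) and brain endothelial cells (1.23 ± 0.0747% against 1.13 ± 0.276%) overlapped between the groups. Astrocytes took 14.9 ± 1.78% and 12.5 ± 4.28%, with aged AAV-B3GNT3 replicate 3 lowest at 7.63%. Without that replicate the astrocyte difference moved from -2.34 to 0.105 percentage points.

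Counts were then summed per library and class and tested across the 6 libraries, with a gene called at an adjusted p under 0.05 by edgeR's quasi-likelihood test (Benjamini-Hochberg over all genes tested in that class). Levels of a gene are given as CPM, its UMIs scaled to 1000000 UMIs of the tested genes in the same sum after TMM scaling of the library sizes. Summed marker levels, and the limit given above for B3gnt3, are per 1000000 of all UMIs of the sum without TMM scaling. Differences are given as fitted log2 values of aged AAV-B3GNT3 minus young with their standard error. For every called gene whose levels are printed, all 3 aged AAV-B3GNT3 libraries lay on the same side of all 3 young libraries, which the choice of the largest rises and falls required. Of all genes tested, called or not, 28.3% did not overlap between the groups in all nuclei, and 14.7% (brain endothelial cells) to 27.7% (excitatory neurons) in the classes. In all nuclei, 651 of 19075 genes were higher in the aged AAV-B3GNT3 libraries (3.41%) and 420 lower (2.2%). Excitatory neurons had 520 higher (3.16%) and 436 lower (2.65%) of 16480 genes. Among inhibitory neurons 86 were higher (0.677%) and 69 lower (0.543%) of 12699, and among striatal projection neurons 207 higher (1.81%) and 257 lower (2.24%) of 11467. Astrocytes had 411 higher (3.2%) and 369 lower (2.87%) of 12848 genes, and oligodendrocytes 294 higher (2.28%) and 231 lower (1.79%) of 12887. For oligodendrocyte precursors the counts were 58 higher (0.618%) and 84 lower (0.895%) of 9385. Vessel classes gave few calls: 2 higher (0.0425%) and 3 lower (0.0638%) of 4703 in brain endothelial cells, 12 higher (0.255%) and 11 lower (0.233%) of 4714 in pericytes, and 36 higher (0.407%) and 28 lower (0.317%) of 8845 in fibroblasts. No gene passed in microglia in either direction (0.0% of 8025) by edgeR, with 1460 genes at an unadjusted p under 0.05 and 295 past the adjusted threshold by DESeq2. By DESeq2, which tested more genes, the balance turned to the lower side, with 957 higher and 1063 lower in all nuclei, 615 and 780 in excitatory neurons, 317 and 397 in astrocytes, 312 and 358 in oligodendrocytes, and 91 and 170 among inhibitory neurons. In the sums over all nuclei, fewer nuclei of a type and less RNA per nucleus cannot be told apart.

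These counts depended on single libraries. Over the 6 fits that left out 1 library, all nuclei gave 59 (without aged AAV-B3GNT3 replicate 1) to 1679 genes (without young replicate 1), excitatory neurons 42 (without young replicate 3) to 1197 (without young replicate 1), astrocytes 216 (without aged AAV-B3GNT3 replicate 1) to 850 (without young replicate 1) and oligodendrocytes 141 (without young replicate 2) to 860 (without aged AAV-B3GNT3 replicate 2). Without young replicate 1, microglia gave 366 higher and 859 lower genes. Except for Csmd2 in astrocytes, each paragraph below names the genes that passed in all 6 of these fits and those that lost the call in at least 1. For the latter it gives the libraries whose removal ended a call, with the range of adjusted p over the genes that lost it, and there the aged AAV-B3GNT3 libraries are called aged replicates. Gene positions are those of GENCODE vM21 on GRCm38.

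**Figure D1:**
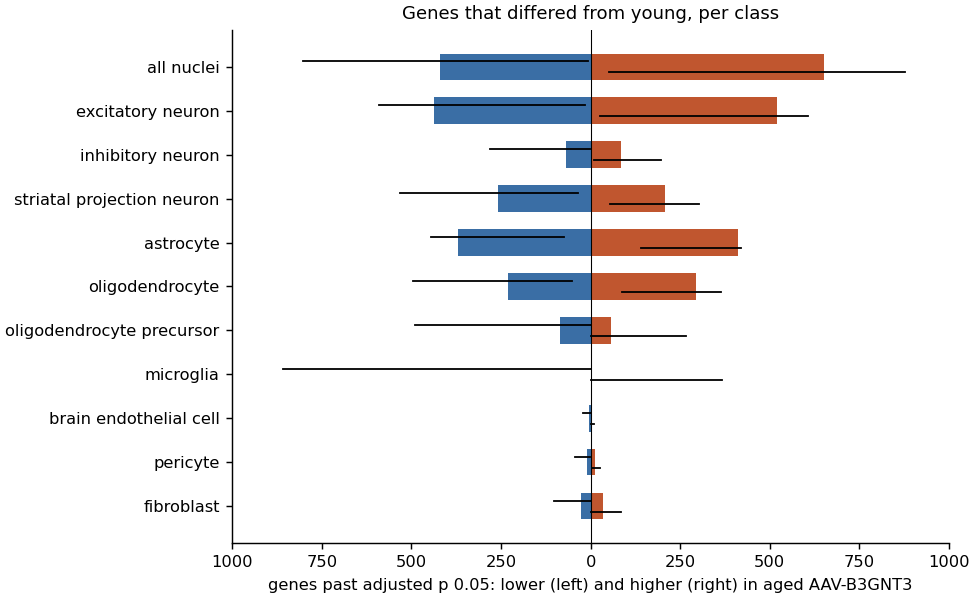
Genes past an adjusted p of 0.05 in all nuclei and in each class (horizontal axis, number of genes), lower in the aged AAV-B3GNT3 libraries to the left and higher to the right, with black lines for the range over the 6 fits that leave out 1 library. Astrocytes, with 411 higher and 369 lower genes, and excitatory neurons, with 520 and 436, lead the classes, and the microglial bars are at 0 with a line that reaches 366 higher and 859 lower genes without young replicate 1.

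Some genes moved the same way in many classes. Of 17381 genes tested in any class, 2134 were called in at least 1, 1508 of them in 1 class, and 233 in at least 3 (1.34%), of which 107 were higher and 122 lower in at least 3. Hsp90b1, the chaperone GRP94 of the endoplasmic reticulum, fell in 6 of the 10 classes, as did Fat3, an atypical cadherin of neurite patterning, Chrm3, the muscarinic M3 receptor, Supt3, a subunit of the SAGA transcription complex, Tra2a, a splicing activator, Rit2, a neuronal small GTPase, and Slc8a1, the sodium-calcium exchanger NCX1. Fat3 in astrocytes was at 573, 618 and 717 CPM in the young libraries and 287, 284 and 323 CPM in the aged AAV-B3GNT3 libraries, a log2 difference of -1.09 ± 0.13 (SE, adjusted p = 0.00060). In oligodendrocytes it was at 170.3, 187 and 170.3 against 82.4, 108 and 101 CPM (-0.85 ± 0.12, adjusted p = 0.0039). In pericytes it was at 186, 327 and 365 against 96.04, 80.1 and 88.1 CPM (-1.70 ± 0.27, adjusted p = 0.0030). Markers of excitatory neurons in the astrocyte and pericyte sums were also lower without overlap, at 576, 504 and 523 against 381, 464 and 403 CPM in astrocytes and 645, 787 and 674 against 449, 578 and 491 CPM in pericytes. In oligodendrocytes they were at 828, 747 and 705 against 638, 729 and 637 CPM, and their part in these shared falls was not tested. With 10% of each sum subtracted as free RNA of the library, Fat3 still passed in all 3 classes (adjusted p = 0.0033 in astrocytes, 0.026 in oligodendrocytes and 0.023 in pericytes). Tra2a fell in oligodendrocytes from 321, 387 and 409 to 197, 222 and 224 CPM (-0.80 ± 0.12, adjusted p = 0.0053). In excitatory neurons it fell from 199, 242 and 254 to 131, 145 and 135 CPM (-0.76 ± 0.10, adjusted p = 0.0085). Slc8a1 in excitatory neurons fell from 1304, 1343 and 1290.3 to 918, 852 and 921 CPM (-0.55 ± 0.08, adjusted p = 0.0088). Fat3 in astrocytes, Fat3 and Tra2a in oligodendrocytes, and Fat3 in pericytes passed in all 6 fits that left out 1 library. Tra2a and Slc8a1 in excitatory neurons lost the call without young replicate 3 (adjusted p = 0.051 to 0.053).

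Rises shared by classes included genes of the protocadherin beta cluster, of which 6 of the 21 tested in any class were higher in at least 4 classes and none lower in any, against 34 of 17381 genes (0.196%) higher in at least 4. The cluster was singled out after its values were seen. Its genes encode cell-surface adhesion proteins of neurons. The transcript 2810049E08Rik and Pcdhb17 each rose in all 6 classes in which they could be tested and Pcdhb7, Pcdhb16 and Pcdhb19 in 5 of 6. Pcdhb14 rose in 5 of 7 and Pcdhb21 in 4 of 6. In astrocytes Pcdhb17 was at 10.5, 9.08 and 9.43 CPM in the young libraries and 31.7, 25.7 and 26.4 CPM in the aged AAV-B3GNT3 libraries, a log2 difference of 1.52 ± 0.19 (SE, adjusted p = 0.00077). Pcdhb7 in oligodendrocytes was at 4.89, 3.28 and 3.24 against 15.5, 13.9 and 14.05 CPM (1.88 ± 0.23, adjusted p = 0.0016). These genes are close copies of each other and overlap predicted transcripts on the same strand, so how reads were split among them is uncertain. Npcd, whose locus shares its strand and span with Nptxr and Cbx6 and is uncertain likewise, rose in 5 of 7 classes, in inhibitory neurons from 9.29, 4.68 and 5.17 to 36.5, 21.7 and 28.4 CPM (2.16 ± 0.26, adjusted p = 0.0057). Pcdhb17 in astrocytes, Pcdhb7 in oligodendrocytes, and Npcd in inhibitory neurons passed in all 6 fits that left out 1 library.

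Some heat shock and chaperone genes were lower in 6 of the 10 classes, and none was higher in any. Chaperones of the endoplasmic reticulum fold secreted and membrane proteins, and their genes are the classical targets of the unfolded protein response. Of the 32 listed heat shock and chaperone genes, all tested in all nuclei, 6 were lower and none higher, with a median log2 difference of -0.41 against 0.0072 over all genes tested. In excitatory neurons 7 of 31 were lower, in astrocytes 6 of 28, in oligodendrocytes 7 of 28, in striatal projection neurons 4 of 24, in oligodendrocyte precursors 2 of 22 and in inhibitory neurons 1 of 26, with none higher in any of these classes. Over all genes tested, 2.2% were lower in all nuclei, 2.65% in excitatory neurons, 2.87% in astrocytes and 1.79% in oligodendrocytes. The lower share was 2.24% in striatal projection neurons, 0.895% in oligodendrocyte precursors and 0.543% in inhibitory neurons. Microglia, brain endothelial cells, pericytes and fibroblasts had no call in this list, with medians of -0.35, -0.17, -0.39 and -0.35. Few genes of any kind were lower there (0.0%, 0.0638%, 0.233% and 0.317% in that order).

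Hspa5, Pdia6, Hsp90b1 and Calr are shown by the 250 bases before their start in the RefSeq annotation (GRCm38.p6), read 5′ to 3′ along the gene, because each holds an element of the form CCAAT, 9 bases of any kind, CCACG, or its reverse complement. This is the element through which ATF6 and XBP1 are known to act. Capitals mark every match.
Hspa5 (chr2:34771840-34772089, plus strand): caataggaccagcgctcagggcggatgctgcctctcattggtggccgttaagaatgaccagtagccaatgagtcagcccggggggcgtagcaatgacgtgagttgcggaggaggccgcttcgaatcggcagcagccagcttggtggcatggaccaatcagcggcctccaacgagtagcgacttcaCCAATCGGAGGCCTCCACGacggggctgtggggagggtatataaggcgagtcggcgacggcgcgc
Pdia6 (chr12:17266339-17266588, plus strand): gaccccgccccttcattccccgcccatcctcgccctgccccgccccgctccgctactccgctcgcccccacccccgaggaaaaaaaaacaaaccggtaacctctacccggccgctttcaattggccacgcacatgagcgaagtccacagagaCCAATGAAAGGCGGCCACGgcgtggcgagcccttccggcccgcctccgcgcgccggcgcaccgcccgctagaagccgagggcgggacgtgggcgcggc
Hsp90b1 (chr10:86705445-86705694, minus strand): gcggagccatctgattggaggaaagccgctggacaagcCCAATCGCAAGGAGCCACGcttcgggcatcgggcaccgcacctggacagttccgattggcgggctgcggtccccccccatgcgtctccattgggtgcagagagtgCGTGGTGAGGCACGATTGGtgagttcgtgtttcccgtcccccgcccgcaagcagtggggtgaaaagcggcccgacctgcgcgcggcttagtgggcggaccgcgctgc
Calr (chr8:84846932-84847181, minus strand): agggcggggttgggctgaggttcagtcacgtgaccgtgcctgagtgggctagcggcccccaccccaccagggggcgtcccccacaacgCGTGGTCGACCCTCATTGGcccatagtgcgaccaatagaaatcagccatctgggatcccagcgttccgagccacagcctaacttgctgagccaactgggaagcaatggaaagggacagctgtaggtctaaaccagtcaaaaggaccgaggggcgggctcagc
Both strands were searched. The element was found in 33 of the 27025 gene windows of that length (0.122%), in 7 of the 25 listed chaperone genes with a window, and in 4 of the 8 with a window that were called in any class. A match is a description of the letters and not a binding site.

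Hspa5, which encodes BiP, the master chaperone of the compartment, was at 19.6, 22.96 and 28.9 CPM in the young libraries and 10.9, 13.4 and 11.9 CPM in the aged AAV-B3GNT3 libraries in all nuclei, a log2 difference of -0.98 ± 0.15 (SE, adjusted p = 0.018). Its level in oligodendrocytes was 30.99, 40.1 and 41.6 against 18.8, 20.2 and 20.6 CPM (-0.91 ± 0.16, adjusted p = 0.0098). Pdia6, a protein disulfide isomerase, fell in oligodendrocytes from 45.5, 42.9 and 51.6 to 22.2, 22.03 and 25.5 CPM (-0.996 ± 0.14, adjusted p = 0.0032). In astrocytes it fell from 32.7, 40.5 and 32.997 to 20.4, 17.1 and 20.1 CPM (-0.89 ± 0.17, adjusted p = 0.0089). In excitatory neurons it fell from 28.9, 38.4 and 47.6 to 18.7, 19.7 and 16.5 CPM (-1.07 ± 0.17, adjusted p = 0.012). The 3 aged AAV-B3GNT3 libraries lay close together and below all young libraries, among which young replicate 1 was lowest in neurons. Hsp90b1 fell in astrocytes from 87.3, 90.3 and 107 to 60.1, 55.1 and 52.4 CPM (-0.76 ± 0.13, adjusted p = 0.0057). In oligodendrocytes it fell from 98.8, 107 and 126 to 65.7, 54.6 and 61.9 CPM (-0.86 ± 0.13, adjusted p = 0.0047). Calr, the lectin chaperone calreticulin, fell in astrocytes from 31.8, 28.2 and 32.6 to 19.2, 15.6 and 16.3 CPM (-0.85 ± 0.17, adjusted p = 0.012). In excitatory neurons it fell from 20.8, 20.6 and 24.6 to 14.2, 13.1 and 11.7 CPM (-0.76 ± 0.12, adjusted p = 0.012). Cytosolic members moved too: Hspa4l, an HSP70 co-chaperone, fell in oligodendrocytes from 60.5, 106 and 145 to 31.8, 41.1 and 38.1 CPM (-1.47 ± 0.25, adjusted p = 0.0099). Hspa8, the constitutive HSC70, fell in astrocytes from 62.02, 57.9 and 56.96 to 34.5, 42.5 and 32.3 CPM (-0.69 ± 0.15, adjusted p = 0.016). Pdia6, Hsp90b1 and Hspa4l in oligodendrocytes and Hsp90b1 and Calr in astrocytes passed in all 6 fits that left out 1 library. Hspa5 in all nuclei, Hspa5 in oligodendrocytes, Pdia6 and Hspa8 in astrocytes, and Pdia6 and Calr in excitatory neurons lost the call in at least 1 of these fits, without young replicate 2 (adjusted p = 0.050 to 0.067), young replicate 3 (0.053 to 0.068) or aged replicate 1 (0.051 to 0.095). In microglia Hsp90b1 was at 137, 142 and 181 against 118, 85.8 and 103 CPM (log2 difference -0.58 ± 0.21, adjusted p = 0.17), a difference of the same sign that did not pass.

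**Figure D2:**
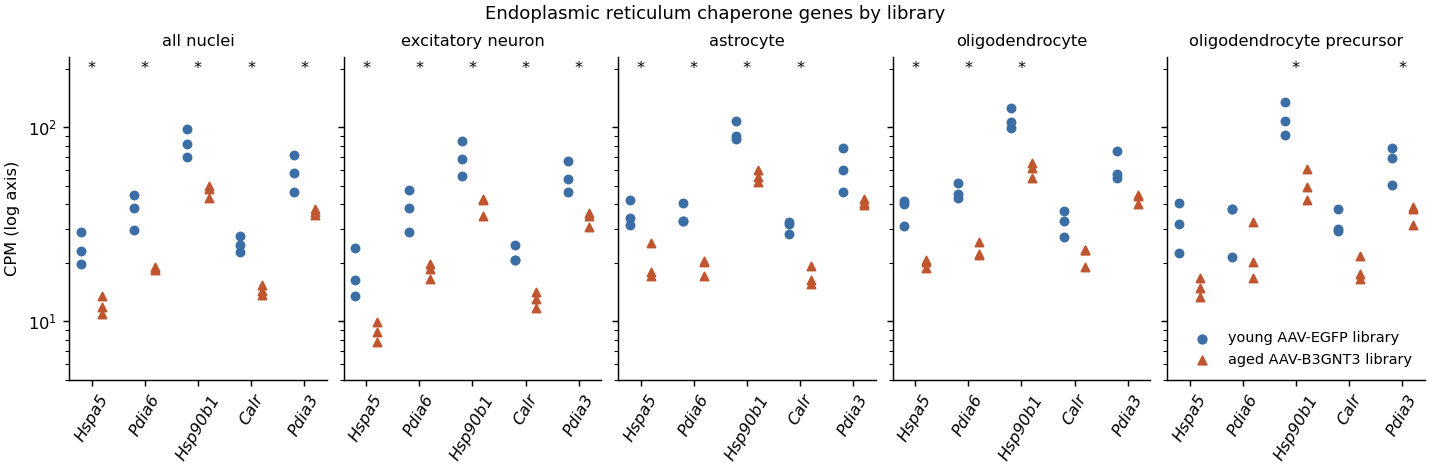
CPM (log axis) of 5 endoplasmic reticulum chaperone genes in each library, young AAV-EGFP as circles and aged AAV-B3GNT3 as triangles, for all nuclei and 4 classes, with an asterisk where the adjusted p was under 0.05. In all nuclei each of the 5 genes is lower in every aged AAV-B3GNT3 library than in every young library.

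Astrocytes carried more RNA of cholesterol synthesis. Astrocytes make most of the sterol of the adult brain, and the genes of the mevalonate pathway are switched on together by SREBP2. The sterol regulatory element in the form TCAC, 1 base of any kind, CCAC, was searched on both strands of the 250 bases before the start. It lay in 280 of 27025 windows (1.04%) and in 1 of the 19 listed cholesterol genes with a window. Of the 14 listed genes called in all nuclei or any class, 9 had a window and 1 of these a match, Hmgcs1. Of 25 listed genes tested in astrocytes, 13 were higher and none lower, with a median log2 difference of 0.67. Over all genes tested there, 3.2% were higher and 2.87% lower. Hmgcs1, which feeds the pathway (ENSMUSG00000093930, chr13:119690379-119708260, plus strand), was at 121, 136 and 112 CPM in the young libraries and 203, 257 and 199.8 CPM in the aged AAV-B3GNT3 libraries, a log2 difference of 0.84 ± 0.14 (SE, adjusted p = 0.0037). Further along, Mvd rose from 18.4, 20.1 and 17.7 to 39.03, 59.6 and 35.2 CPM (1.26 ± 0.20, adjusted p = 0.0034). Fdft1, the squalene synthase, rose from 121, 114 and 104 to 189.96, 209 and 161 CPM (0.72 ± 0.13, adjusted p = 0.0067). Sqle, the squalene epoxidase, rose from 39.9, 35.6 and 33.8 to 60.98, 83.5 and 54.9 CPM (0.87 ± 0.17, adjusted p = 0.0093). Cyp51, the lanosterol demethylase, rose from 67.2, 74.9 and 57.4 to 133, 168 and 108 CPM (1.04 ± 0.16, adjusted p = 0.0032). Acat2, which supplies acetoacetyl-CoA, rose from 19.3, 16.7 and 20.03 to 39.3, 48.3 and 38.5 CPM (1.19 ± 0.17, adjusted p = 0.0016). The sterol sensor Insig1 was at 61.8, 63.1 and 48.7 against 112, 128 and 109 CPM (0.997 ± 0.14, adjusted p = 0.0014). Aged AAV-B3GNT3 replicate 2 was the highest library for each of these genes. The make-up of the class also differed. At a clustering resolution of 1.0, against 0.3 for the classes described here, a cluster led by Thbs4 held 22.4, 34.05 and 23.02% of astrocytes in the young libraries and 5.99, 18.98 and 9.302% in the aged AAV-B3GNT3 libraries, without overlap. Within the other, larger cluster alone, 366 genes were higher and 364 lower, and 654 of the 780 calls of the class were kept. Each of these 7 cholesterol genes passed there, with log2 differences of 0.67 to 1.12 and adjusted p = 0.0026 to 0.014. Hmgcs1, Mvd, Fdft1, Sqle, Cyp51, Acat2 and Insig1 passed in all 6 fits that left out 1 library.

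**Figure D3:**
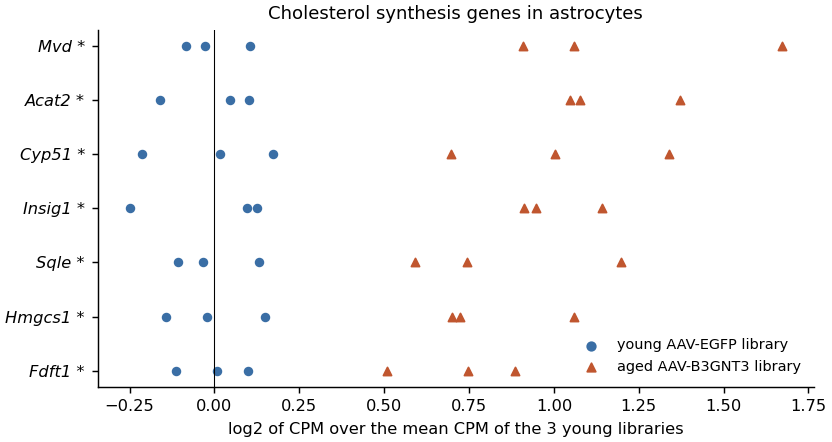
The 7 cholesterol synthesis genes described for astrocytes, all with an adjusted p under 0.05 (asterisk), each library as the log2 of its CPM over the mean CPM of the 3 young libraries (circles young, triangles aged AAV-B3GNT3), sorted by the log2 difference. Each gene has all 3 triangles to the right of all 3 circles.

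Other classes had fewer calls in this list. Excitatory neurons had 3 genes higher and 1 lower of 27, and inhibitory neurons 3 higher of 24. Among all genes tested, 3.16% were higher and 2.65% lower in excitatory neurons, and 0.677% higher in inhibitory neurons. Acat2 rose in excitatory neurons from 10.9, 9.61 and 7.65 to 19.6, 17.6 and 18.8 CPM (0.99 ± 0.14, adjusted p = 0.0088). Insig1 rose in the same neurons from 8.26, 7.39 and 5.42 to 15.3, 13.2 and 11.3 CPM (0.92 ± 0.18, adjusted p = 0.023). Cyp51 rose in inhibitory neurons from 25.7, 25.9 and 21.7 to 50.02, 34.6 and 39.4 CPM (0.75 ± 0.16, adjusted p = 0.042). Nsdhl, a sterol dehydrogenase, went the other way and fell in excitatory neurons from 10.4, 14.6 and 16.4 to 6.87, 9.17 and 5.299 CPM (-0.96 ± 0.23, adjusted p = 0.041). In oligodendrocytes none of 26 was higher and 1 was lower, Nsdhl, at 18.1, 24.4 and 24.8 against 12.2, 14.6 and 9.14 CPM (-0.90 ± 0.21, adjusted p = 0.039), and the median was -0.06. Acat2, Insig1 and Nsdhl in excitatory neurons, Cyp51 in inhibitory neurons, and Nsdhl in oligodendrocytes lost the call in at least 1 of the 6 fits that left out 1 library, without young replicate 2 (adjusted p = 0.084 to 0.16), young replicate 3 (0.053 to 0.22), aged replicate 1 (0.090 to 0.19), aged replicate 2 (0.051) or aged replicate 3 (0.064 to 0.11). Nsdhl did not pass in the largest excitatory cluster alone (adjusted p = 0.12) or, in oligodendrocytes, with free RNA subtracted (0.066), and Cyp51 in inhibitory neurons did not at resolution 1.0 (0.082), with free RNA subtracted (0.057) or thinned (0.066).

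Some genes of the circadian clock differed between the groups. The clock is a feedback loop in which BMAL1, encoded by Arntl, and CLOCK drive Per, Cry and the PAR-bZIP factors Dbp, Tef and Hlf, whose products peak at other hours than Arntl. Of 20 listed genes, 5 were higher and 1 lower in all nuclei, 6 higher and 1 lower of 19 in astrocytes, 6 higher of 19 in excitatory neurons and in oligodendrocytes, and 3 higher and 1 lower of 18 in striatal projection neurons. Over all genes tested, 3.41% were higher and 2.2% lower in all nuclei, 3.2% and 2.87% in astrocytes, and 1.81% and 2.24% in striatal projection neurons. Higher were 3.16% in excitatory neurons and 2.28% in oligodendrocytes. The hour at which each mouse was killed is not given in the sources used here. Ciart, a repressor of the loop, is shown with Cry1 by the 250 bases before their start in the same annotation, because both hold the E-box CACGTG bound by CLOCK and BMAL1, in capitals. The E-box reads the same on both strands and lay in 1634 of 27025 windows (6.05%) and in 5 of the 17 listed clock genes with a window. Of the 11 listed genes called in all nuclei or any class, 10 had a window and 4 of these a match.
Ciart (chr3:95882229-95882478, minus strand): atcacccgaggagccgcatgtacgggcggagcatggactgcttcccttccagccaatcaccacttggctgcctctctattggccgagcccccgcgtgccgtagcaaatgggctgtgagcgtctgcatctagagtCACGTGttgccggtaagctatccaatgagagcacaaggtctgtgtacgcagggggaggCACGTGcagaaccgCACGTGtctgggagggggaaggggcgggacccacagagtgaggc
Cry1 (chr10:85185055-85185304, minus strand): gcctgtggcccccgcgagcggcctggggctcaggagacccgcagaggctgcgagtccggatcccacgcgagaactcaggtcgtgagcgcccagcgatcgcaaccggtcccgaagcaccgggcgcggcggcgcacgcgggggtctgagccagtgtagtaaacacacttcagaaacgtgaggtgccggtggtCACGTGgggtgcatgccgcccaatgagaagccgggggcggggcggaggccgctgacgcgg
Ciart in astrocytes was at 8.96, 13.7 and 19.6 CPM in the young libraries and 51.8, 49.04 and 36.4 CPM in the aged AAV-B3GNT3 libraries, a log2 difference of 1.76 ± 0.24 (SE, adjusted p = 0.0013). In oligodendrocytes it was at 4.53, 7.98 and 10.9 against 24.1, 20.7 and 16.1 CPM (1.42 ± 0.28, adjusted p = 0.019). Dbp rose in astrocytes from 25.7, 26.02 and 25.5 to 60.7, 57.1 and 57.8 CPM (1.18 ± 0.14, adjusted p = 0.00058). In excitatory neurons it rose from 7.27, 7.95 and 6.66 to 11.9, 12.2 and 10.5 CPM (0.66 ± 0.13, adjusted p = 0.024). The cryptochrome Cry1, which closes the loop, rose in astrocytes from 17.9, 20.1 and 21.2 to 37.5, 46.5 and 36.03 CPM (1.04 ± 0.17, adjusted p = 0.0035). In excitatory neurons it rose from 14.3, 16.2 and 14.6 to 24.7, 23.4 and 21.9 CPM (0.63 ± 0.11, adjusted p = 0.013). The period gene Per3 rose in striatal projection neurons from 43.3, 44.9 and 47.7 to 91.3, 84.4 and 78.9 CPM (0.91 ± 0.13, adjusted p = 0.0028). In fibroblasts it rose from 86.3, 87.7 and 87.2 to 199.6, 156 and 190.3 CPM (1.06 ± 0.17, adjusted p = 0.013). Arntl went down in all nuclei, at 122, 107 and 111 against 79.7, 92.1 and 70.3 CPM (-0.49 ± 0.11, adjusted p = 0.041). In pericytes it fell from 118, 75.1 and 84.9 to 8.35, 30.5 and 29.4 CPM (-2.06 ± 0.42, adjusted p = 0.024). Per3 overlaps Camta1 on the same strand, so its reads may be shared. Ciart, Dbp and Cry1 in astrocytes and Per3 in striatal projection neurons passed in all 6 fits that left out 1 library. Ciart in oligodendrocytes, Dbp and Cry1 in excitatory neurons, Per3 in fibroblasts, Arntl in all nuclei, and Arntl in pericytes lost the call in at least 1 of these fits, without young replicate 1 (adjusted p = 0.055 to 0.13), young replicate 2 (0.053 to 0.093), young replicate 3 (0.079 to 0.12), aged replicate 1 (0.065 to 0.23) or aged replicate 3 (0.066 to 0.077). Within the larger finer cluster of astrocytes alone, Ciart, Dbp and Cry1 passed (adjusted p = 0.0011, 0.00086 and 0.0071). With free RNA subtracted, Per3 in fibroblasts (adjusted p = 0.052) and Arntl in pericytes (0.11) did not pass.

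**Figure D4:**
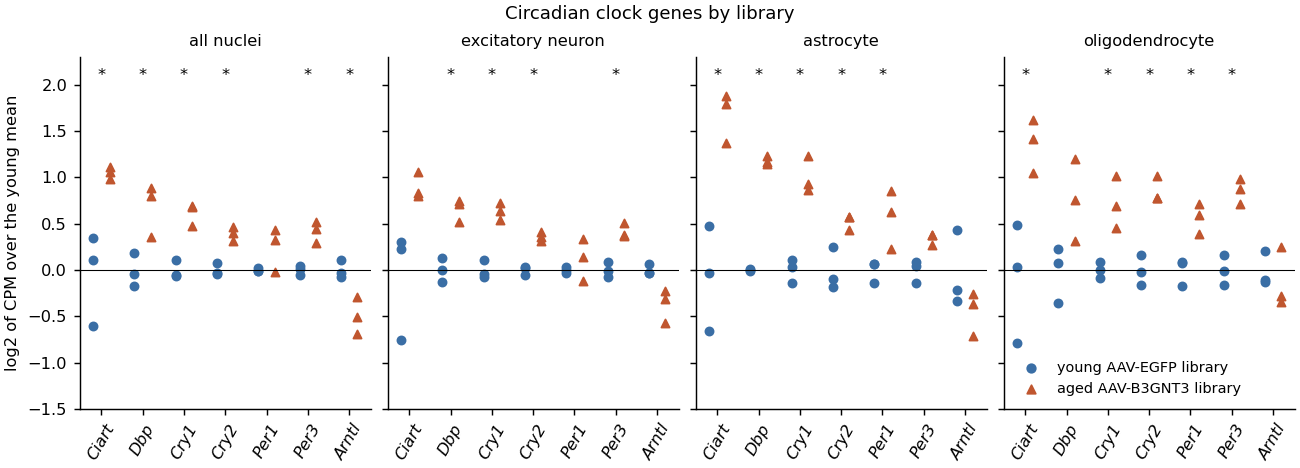
Clock genes in all nuclei and 3 classes, each library as the log2 of its CPM over the young mean (circles young, triangles aged AAV-B3GNT3), with an asterisk where the adjusted p was under 0.05. Ciart, Dbp, Cry1 and Cry2 lie above the young mean in every aged AAV-B3GNT3 library of these 4 panels, and Arntl lies below it in every one but aged AAV-B3GNT3 replicate 2 in oligodendrocytes.

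Some targets of the glucocorticoid receptor, which carries the adrenal stress and day-night signal, rose in astrocytes and oligodendrocytes. In astrocytes 6 of 20 listed genes were higher and none lower, and in oligodendrocytes 3 of 18 higher and 1 lower. Over all genes tested, 3.2% were higher and 2.87% lower in astrocytes, and 2.28% and 1.79% in oligodendrocytes. Plin4, a lipid droplet coat protein, was at 1.34, 1.96 and 1.96 CPM in the young libraries and 12.2, 28.2 and 5.86 CPM in the aged AAV-B3GNT3 libraries in astrocytes, a log2 difference of 3.20 ± 0.53 (SE, adjusted p = 0.0038). It was at 11.1, 25.1 and 39.2 against 124, 182 and 43.8 CPM in oligodendrocytes (2.26 ± 0.49, adjusted p = 0.028). Fkbp5, a co-chaperone of the receptor, rose in astrocytes from 17.2, 40.3 and 126 to 290.3, 345 and 145 CPM (2.16 ± 0.49, adjusted p = 0.021), a wide spread among the young libraries, with young replicate 3 near aged AAV-B3GNT3 replicate 3. Hif3a, an oxygen-response factor also known as a glucocorticoid target, rose in astrocytes from 141, 159 and 243 to 418, 354 and 282 CPM (0.97 ± 0.19, adjusted p = 0.011). In oligodendrocytes Tsc22d3, the glucocorticoid-induced leucine zipper, was lower, at 223, 305 and 398 against 173, 196 and 183 CPM (-0.74 ± 0.18, adjusted p = 0.040). Plin4 in astrocytes passed in all 6 fits that left out 1 library. Plin4 and Tsc22d3 in oligodendrocytes and Fkbp5 and Hif3a in astrocytes lost the call in at least 1 of these fits, without young replicate 2 (adjusted p = 0.066 to 0.14), young replicate 3 (0.099), aged replicate 1 (0.064 to 0.18), aged replicate 2 (0.051 to 0.052) or aged replicate 3 (0.098). With free RNA subtracted, Plin4 and Tsc22d3 in oligodendrocytes (adjusted p = 0.062 and 0.071) and Fkbp5 in astrocytes (0.075) did not pass, and by DESeq2 Plin4 in oligodendrocytes (0.054) and Fkbp5 in astrocytes (0.16) did not.

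C4b rose in oligodendrocytes, astrocytes and oligodendrocyte precursors, and 6 of 16 reactivity genes rose in astrocytes. C4b, the complement component cleaved to tag surfaces (ENSMUSG00000073418, chr17:34728380-34743882, minus strand), was at 11.4, 5.63 and 18.3 CPM in the young libraries and 64.8, 59.2 and 49.9 CPM in the aged AAV-B3GNT3 libraries in oligodendrocytes, 5.02-fold higher (log2 difference 2.33 ± 0.28, adjusted p = 0.0015). It was at 60.9, 35.3 and 57.7 against 117, 116 and 75.4 CPM in astrocytes (1.02 ± 0.21, adjusted p = 0.012). It was at 4.104, 5.41 and 1.803 against 16.9, 18.4 and 10.9 CPM in oligodendrocyte precursors (1.82 ± 0.41, adjusted p = 0.046). The complement list held 1 higher and 2 lower of 6 genes in astrocytes, 1 higher of 8 in oligodendrocytes, 1 higher of 5 in oligodendrocyte precursors and none of 10 in microglia, and among the lower ones Csmd2, a complement-control domain protein, fell in astrocytes from 98.7, 82.5 and 98.99 to 44.8, 58.6 and 36.03 CPM (-0.99 ± 0.17, adjusted p = 0.0044). Over all genes tested, 3.2% were higher and 2.87% lower in astrocytes. Higher were 2.28% in oligodendrocytes, 0.618% in oligodendrocyte precursors and 0.0% in microglia. Of the 16 reactivity genes tested in astrocytes none fell, and 11 fitted differences were above 0 and 5 below. Gfap, the intermediate filament of reactive astrocytes, rose from 57.99, 50.6 and 51.1 to 128, 102 and 127 CPM (1.15 ± 0.14, adjusted p = 0.00060). Osmr, the oncostatin M receptor, rose from 16.1, 6.38 and 8.25 to 26.8, 27.4 and 30.2 CPM (1.41 ± 0.27, adjusted p = 0.0091). Cd44, the hyaluronan receptor, rose from 8.06, 7.36 and 7.46 to 16.2, 11.3 and 23.9 CPM (1.12 ± 0.28, adjusted p = 0.031). Ggta1 rose from 27.99, 22.3 and 23.96 to 42.4, 43.003 and 40.6 CPM (0.76 ± 0.15, adjusted p = 0.012). C4b in oligodendrocytes and Gfap and Osmr in astrocytes passed in all 6 fits that left out 1 library. C4b, Cd44 and Ggta1 in astrocytes and C4b in oligodendrocyte precursors lost the call in at least 1 of these fits, without young replicate 1 (adjusted p = 0.053), young replicate 2 (0.053 to 0.12), young replicate 3 (0.076 to 0.15), aged replicate 1 (0.062 to 0.25), aged replicate 2 (0.14) or aged replicate 3 (0.091 to 0.13). Within the larger finer cluster of astrocytes alone, C4b, Gfap, Osmr and Ggta1 passed (adjusted p = 0.00086 to 0.015) and Cd44 did not (0.15). With free RNA subtracted, Cd44 (adjusted p = 0.058) and C4b in oligodendrocyte precursors (0.092) did not pass, and the latter did not at resolution 1.0 (0.075).

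The interferon-response and MHC class I genes that passed were mostly higher, at low levels. Among all genes tested, 3.41% were higher and 2.2% lower in all nuclei, and 3.16% and 2.65% in excitatory neurons. Higher were 3.2% in astrocytes, 2.28% in oligodendrocytes and 0.677% in inhibitory neurons. The list had 4 higher and 1 lower of 46 genes in all nuclei, 5 higher and 1 lower of 28 in excitatory neurons, 5 higher of 24 in astrocytes, 2 higher of 18 in oligodendrocytes and 1 higher of 17 in inhibitory neurons. None of 21 passed in microglia, where all 21 fitted differences were above 0 (median 0.43), and none of 12 in brain endothelial cells, where 11 were below 0 (median -0.48). Eif2ak2, the double-stranded RNA sensor PKR, rose in excitatory neurons from 1.94, 1.02 and 1.08 to 4.24, 4.69 and 4.39 CPM (1.72 ± 0.26, adjusted p = 0.0098). In inhibitory neurons it rose from 1.99, 4.46 and 3.45 to 12.005, 9.21 and 13.9 CPM (1.82 ± 0.30, adjusted p = 0.018). Nlrc5, the transactivator of MHC class I, rose in astrocytes from 2.91, 2.21 and 1.96 to 9.15, 6.79 and 5.03 CPM (1.54 ± 0.35, adjusted p = 0.022). The peptide transporter Tap2 rose in excitatory neurons from 2.85, 1.696 and 1.903 to 5.96, 4.13 and 5.33 CPM (1.26 ± 0.24, adjusted p = 0.021). Irf9, a subunit of the interferon-activated factor ISGF3, went the other way in all nuclei, at 10.3, 10.9 and 12.5 against 6.15, 7.92 and 5.21 CPM (-0.80 ± 0.17, adjusted p = 0.037), though it overlaps Rnf31 on the same strand. Eif2ak2 and Tap2 in excitatory neurons, Eif2ak2 in inhibitory neurons, Nlrc5 in astrocytes, and Irf9 in all nuclei lost the call in at least 1 of the 6 fits that left out 1 library, without young replicate 2 (adjusted p = 0.052 to 0.10), young replicate 3 (0.063 to 0.13), aged replicate 1 (0.084 to 0.16) or aged replicate 3 (0.058). Eif2ak2 in inhibitory neurons did not pass at resolution 1.0 (adjusted p = 0.061), and Nlrc5 in astrocytes did not pass with free RNA subtracted (0.054) or by DESeq2 (0.059).

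Microglia gave no call, and their sums were uneven. Microglial markers summed to 4683, 2244 and 3293 CPM in the young libraries and 5854, 4987 and 4399 CPM in the aged AAV-B3GNT3 libraries, and Pde10a of striatal neurons in the same sums was at 509, 1166 and 846 CPM in the young libraries and 255, 322 and 264 CPM in the aged AAV-B3GNT3 libraries, per all UMIs. The other 7 striatal neuron markers summed to 131.5, 241 and 152 CPM in the young libraries and 119.7, 136 and 108 CPM in the aged AAV-B3GNT3 libraries. Young replicate 1 was highest for microglial markers and lowest for striatal ones among the young libraries, and the part of this in the result was not tested. P2ry12, the purinergic receptor of surveying microglia, was at 698, 336 and 358 CPM in the young libraries and 841, 597 and 822 CPM in the aged AAV-B3GNT3 libraries, a log2 difference of 0.70 ± 0.28 (SE, adjusted p = 0.22). The fractalkine receptor Cx3cr1 was at 619.8, 271 and 363 against 448, 461 and 366 CPM (0.03 ± 0.28, adjusted p = 0.97). The growth factor receptor Csf1r was at 598, 318 and 414 against 624, 531 and 471 CPM (0.29 ± 0.24, adjusted p = 0.57). Apoe, the lipid carrier raised in disease-state microglia, was at 91.7, 84.04 and 87.3 against 106, 98.7 and 130.3 CPM (0.36 ± 0.20, adjusted p = 0.37). The groups overlapped for P2ry12, Cx3cr1 and Csf1r, and 20.7% of all microglial genes tested, like Apoe, did not overlap. Of 13 disease-state and 20 homeostatic microglial genes tested, none passed.

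In oligodendrocytes 5 of 17 genes of newly forming cells were lower and none higher, while the myelin genes Mbp and Mog did not pass. Mbp, the myelin basic protein, was at 2941, 2618 and 3101 CPM in the young libraries and 3238, 2695 and 2718 CPM in the aged AAV-B3GNT3 libraries, a log2 difference of -0.0017 ± 0.13 (SE, adjusted p = 0.996). Mog, a glycoprotein of the outer myelin surface, was at 628, 629 and 661 against 753, 588 and 778 CPM (0.14 ± 0.13, adjusted p = 0.58). Of 27 myelin and mature genes 3 were lower and none higher, where 1.79% of all genes tested were lower and 2.28% higher. Ugt8a, the galactolipid synthase, fell from 572, 696 and 520.5 to 361, 444 and 403 CPM (-0.57 ± 0.13, adjusted p = 0.039). The connexin gene Gjc3 fell from 469, 456 and 475 to 343, 323 and 333 CPM (-0.49 ± 0.10, adjusted p = 0.023). Of the genes of newly forming cells, Tcf7l2, the Wnt effector that marks differentiating cells, fell from 177, 141 and 111 to 57.7, 63.3 and 57.6 CPM (-1.27 ± 0.16, adjusted p = 0.0018). Mpzl1, a receptor-like glycoprotein, fell from 183, 206 and 188 to 84.2, 120.4 and 84.7 CPM (-0.998 ± 0.15, adjusted p = 0.0041). Tmem163, a zinc transporter, fell from 179, 202 and 244 to 122, 101 and 113 CPM (-0.89 ± 0.13, adjusted p = 0.0050). Tcf7l1, a related factor, fell from 25.7, 16.4 and 22.99 to 3.87, 7.78 and 5.18 CPM (-1.95 ± 0.26, adjusted p = 0.0025). Finer clusters of the class differed in size between libraries. At resolution 1.0 a cluster with Anln and Enpp6 among its leading genes held 40.4, 32.1 and 26.3% of the class in the young libraries and 17.6, 17.4 and 18.5% in the aged AAV-B3GNT3 libraries, without overlap. A cluster with Opalin and Il33 among its leading genes held 24.5, 20.5 and 44.6% in the young libraries and 72.8, 39.3 and 68.5% in the aged AAV-B3GNT3 libraries, with overlap. Within the Opalin cluster alone, the largest, 248 genes were higher and 241 lower, and 336 of the 525 calls were kept. Tcf7l2 (log2 difference -1.14), Mpzl1 (-1.02), Tmem163 (-1.05), Tcf7l1 (-2.28), Ugt8a (-0.55) and Gjc3 (-0.57) passed there as well, at adjusted p = 0.00030 to 0.048. Tcf7l2, Mpzl1, Tmem163 and Tcf7l1 passed in all 6 fits that left out 1 library. Ugt8a and Gjc3 lost the call in at least 1 of these fits, without young replicate 2 (adjusted p = 0.097 to 0.19), young replicate 3 (0.052), aged replicate 1 (0.10 to 0.20) or aged replicate 3 (0.066 to 0.096). Ugt8a did not pass with free RNA subtracted (adjusted p = 0.065).

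Other changes in oligodendrocytes lay outside these lists. Acsm3, a medium-chain acyl-CoA synthetase (ENSMUSG00000030935, chr7:119760923-119787513, plus strand) was at 1.27, 1.88 and 0.884 CPM in the young libraries and 13.5, 13.1 and 15.8 CPM in the aged AAV-B3GNT3 libraries, 10.24-fold higher (log2 difference 3.36 ± 0.29, adjusted p = 0.00014), from a mean of 6 UMIs per young library and 84.3 per aged AAV-B3GNT3 library. Sh2b2, an adaptor of insulin signalling, rose from 4.17, 9.85 and 12.97 to 68.5, 56.5 and 46.1 CPM (2.73 ± 0.30, adjusted p = 0.00077). Acot11, a thioesterase, rose from 4.53, 3.52 and 10.02 to 37.9, 34.4 and 22.1 CPM (2.44 ± 0.33, adjusted p = 0.0025). Hrasls5, an acyltransferase, rose from 0.906, 2.35 and 2.06 to 8.56, 6.67 and 11.2 CPM (2.38 ± 0.37, adjusted p = 0.0056). Kcnab1, a potassium channel subunit, rose from 281, 311 and 277 to 578, 539.7 and 689 CPM (1.05 ± 0.12, adjusted p = 0.0012). Col6a3, a collagen VI chain, rose from 5.26, 3.75 and 3.83 to 19.6, 11.3 and 14.3 CPM (1.78 ± 0.27, adjusted p = 0.0050). Man1a, a Golgi mannosidase of N-glycan trimming, had the largest fall among these genes and fell from 118, 198 and 267 to 33.2, 42.4 and 32.9 CPM (-2.42 ± 0.25, adjusted p = 0.00065). Prom1 fell from 18.3, 16.4 and 11.8 to 6.73, 2.04 and 1.91 CPM (-2.21 ± 0.39, adjusted p = 0.011). Sytl5 fell from 21.9, 31.9 and 42.4 to 6.32, 5.18 and 9.001 CPM (-2.18 ± 0.27, adjusted p = 0.0018). Nckap5 fell from 198, 209.8 and 168 to 55.7, 43.1 and 42.7 CPM (-2.03 ± 0.14, adjusted p = 6.7e-05). Acsm3, Sh2b2, Acot11, Hrasls5, Kcnab1, Col6a3, Man1a, Sytl5 and Nckap5 passed in all 6 fits that left out 1 library. Prom1 lost the call without young replicate 2 (adjusted p = 0.054). All 10 passed within the Opalin cluster alone (adjusted p = 1.1e-06 to 0.043), and Prom1 did not pass in the class at resolution 1.0 (0.052).

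**Figure D5:**
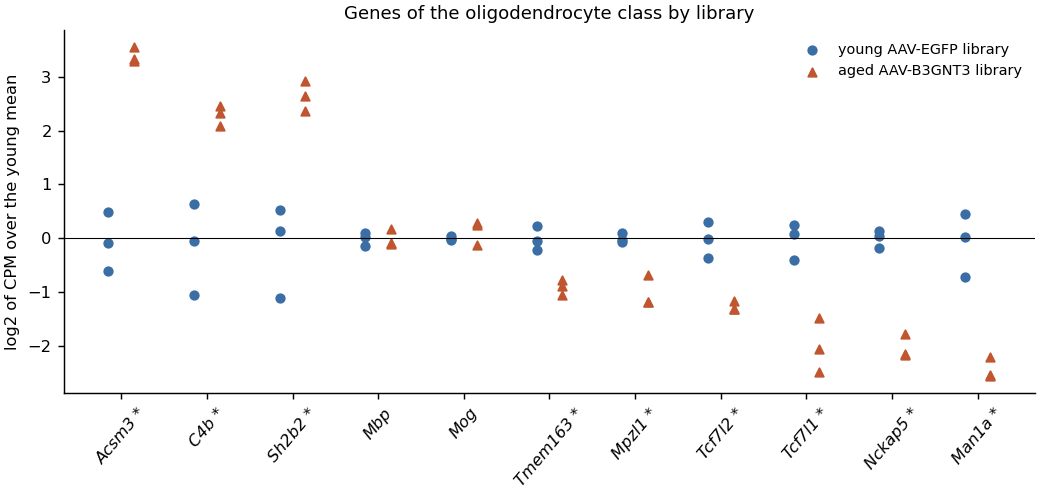
Oligodendrocyte genes of the text, each library as the log2 of its CPM over the young mean (circles young, triangles aged AAV-B3GNT3), with an asterisk beside the symbol where the adjusted p was under 0.05. The triangles of Mbp and Mog mix with the circles, those of Acsm3, C4b and Sh2b2 lie above all circles and those of the 6 genes from Tmem163 to Man1a below all circles.

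Oligodendrocyte precursors, which divide and give rise to new oligodendrocytes, had 142 calls, and the falls of St18, Mbp and Frmd4b among them depended on how the nuclei were clustered. St18, a zinc finger factor of oligodendrocytes, was at 176, 752 and 398 CPM in the young libraries and 38.6, 73.5 and 158 CPM in the aged AAV-B3GNT3 libraries, a log2 difference of -2.24 ± 0.46 (SE, adjusted p = 0.034). Mbp fell from 162, 474 and 223 to 71.1, 68.2 and 115 CPM (-1.75 ± 0.33, adjusted p = 0.029). Enpp6, an enzyme of newly forming oligodendrocytes, fell from 61.6, 54.5 and 24.3 to 3.62, 11.4 and 18.6 CPM (-1.90 ± 0.40, adjusted p = 0.036). Frmd4b fell from 45.1, 248 and 104 to 19.3, 27.99 and 30.6 CPM (-2.37 ± 0.46, adjusted p = 0.032). Nrp1, a semaphorin receptor, fell from 29.8, 125 and 66.7 to 14.5, 19.2 and 21.3 CPM (-2.04 ± 0.40, adjusted p = 0.034). Young replicate 2 was highest for St18, Mbp, Frmd4b and Nrp1. The markers of mature oligodendrocytes in these sums moved with them, at 714, 2117 and 1179 CPM in the young libraries and 392, 407 and 628 CPM in the aged AAV-B3GNT3 libraries, and their part in the result was not tested. Clustering at resolution 1.0 set apart 213 nuclei with markers of newly forming oligodendrocytes, with Neu4, Bcas1 and Enpp6 among their leading genes, 16, 123 and 35 of them in the young libraries and 7, 8 and 24 in the aged AAV-B3GNT3 libraries. Their mean doublet score, the share of simulated doublets among the nearest neighbours, was 0.566, against 0.054 for the precursor cluster at that resolution. Whether these nuclei were doublets was not tested. The precursors then gave 185 calls, which held 85 of the 142. In that fit St18 (log2 difference -0.46, adjusted p = 0.29), Mbp (0.062, 0.94) and Frmd4b (-0.765, 0.14) did not pass, Enpp6 was too low to be tested and Nrp1 passed at a smaller difference (-1.20, 0.011). With doublets kept, St18 (-0.70, adjusted p = 0.24), Mbp (-0.42, 0.44), Frmd4b (-0.52, 0.37) and Nrp1 (-0.99, 0.18) did not pass, nor did Enpp6 (0.12). Maf, a transcription factor, rose from 65.7, 49.5 and 45.1 to 139.8, 113 and 153 CPM (1.36 ± 0.18, adjusted p = 0.0074). Mthfd1l, a mitochondrial folate enzyme, rose from 106, 70.8 and 97.4 to 252, 167 and 239 CPM (1.29 ± 0.19, adjusted p = 0.015). Slc22a21, a carnitine transporter, rose from 21.5, 11.7 and 21.6 to 36.2, 38.5 and 50.9 CPM (1.31 ± 0.27, adjusted p = 0.036). Maf, Mthfd1l and Slc22a21 passed at resolution 1.0 as well (adjusted p = 0.00049, 0.00039 and 0.023), and Slc22a21 did not with doublets kept (0.090). Leaving out either aged AAV-B3GNT3 replicate 1 or 3 left no call in this class. St18, Mbp, Enpp6, Frmd4b, Nrp1, Maf, Mthfd1l and Slc22a21 lost the call in at least 1 of the 6 fits that left out 1 library, without young replicate 2 (adjusted p = 0.057 to 0.12), young replicate 3 (0.050 to 0.072), aged replicate 1 (0.13 to 0.23), aged replicate 2 (0.073 to 0.12) or aged replicate 3 (0.089 to 0.17).

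The largest named rises in excitatory neurons were of genes at low level. Hao1, a peroxisomal hydroxyacid oxidase (ENSMUSG00000027261, chr2:134497361-134554368, minus strand), was at 0.496, 0.377 and 0.2895 CPM in the young libraries and 2.79, 2.17 and 4.04 CPM in the aged AAV-B3GNT3 libraries in excitatory neurons, 7.71-fold higher (log2 difference 2.95 ± 0.34, adjusted p = 0.0061). Vmn2r56, a vomeronasal receptor gene with close relatives, rose from 0.578, 0.716 and 0.6204 to 3.92, 5.08 and 3.37 CPM (2.68 ± 0.25, adjusted p = 0.0037). C8b, a component of the membrane attack complex, rose from 0.6197, 0.377 and 0.248 to 2.04, 2.13 and 3.404 CPM (2.61 ± 0.36, adjusted p = 0.0086). The chemokine Ccl17 rose from 0.744, 0.226 and 0.2895 to 2.36, 1.56 and 2.56 CPM (2.37 ± 0.41, adjusted p = 0.017). The Wnt receptor Fzd6 rose from 0.868, 0.415 and 0.662 to 4.08, 1.95 and 3.58 CPM (2.302 ± 0.36, adjusted p = 0.011). Of the falls, Tm6sf2 was at 2.64, 2.68 and 4.05 against 0.698, 1.39 and 0.632 CPM (-1.78 ± 0.33, adjusted p = 0.020). Dnd1 was at 1.82, 1.88 and 2.73 against 0.537, 0.956 and 0.667 CPM (-1.56 ± 0.30, adjusted p = 0.021). Fn1, which encodes fibronectin, was at 12.1, 6.79 and 6.78 against 3.01, 3.78 and 2.11 CPM (-1.54 ± 0.29, adjusted p = 0.020). Tnfrsf25, a death receptor, was at 15.8, 16.1 and 23.5 against 4.67, 10.6 and 4.11 CPM (-1.52 ± 0.33, adjusted p = 0.031). AI481877 was at 6.98, 6.18 and 12.6 against 3.33, 2.04 and 3.97 CPM (-1.45 ± 0.32, adjusted p = 0.031). Hao1 and Vmn2r56 passed in all 6 fits that left out 1 library. C8b, Ccl17, Fzd6, Tm6sf2, Dnd1, Fn1, Tnfrsf25 and AI481877 lost the call in at least 1 of these fits, without young replicate 2 (adjusted p = 0.052 to 0.083), young replicate 3 (0.053 to 0.13), aged replicate 1 (0.062 to 0.11), aged replicate 2 (0.062) or aged replicate 3 (0.053 to 0.060). Ccl17 and AI481877 did not pass in the largest excitatory cluster alone (adjusted p = 0.093 and 0.058). In that cluster 564 genes were higher and 624 lower, and 658 of the 956 calls of the class were kept. The make-up of the class varied between libraries. A cluster with Prox1 among its leading genes held 122, 117 and 152 nuclei in the young libraries and 42, 146 and 290 in the aged AAV-B3GNT3 libraries.

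In the sums over all nuclei the 5 largest rises were led by Cyp3a57, a cytochrome P450, at 0.0187, 0.114 and 0.1396 against 1.298, 1.102 and 0.932 CPM (log2 difference 3.6 ± 0.45, adjusted p = 0.010). Hao1 rose from 0.337, 0.308 and 0.233 to 3.004, 2.15 and 4.28 CPM (3.4 ± 0.32, adjusted p = 0.0046). Acsm3 rose from 0.2996, 0.519 and 0.233 to 2.23, 1.92 and 2.46 CPM (2.61 ± 0.30, adjusted p = 0.0069). Crtam rose from 0.506, 0.195 and 0.209 to 1.56, 1.16 and 2.78 CPM (2.59 ± 0.46, adjusted p = 0.024). C8b rose from 0.693, 0.276 and 0.209 to 2.26, 1.92 and 2.85 CPM (2.56 ± 0.40, adjusted p = 0.018). Of the 5 largest falls, Tnfrsf25 was at 9.34, 10.1 and 16.1 against 2.81, 6.44 and 2.43 CPM (-1.60 ± 0.38, adjusted p = 0.048). Igfbpl1, a gene of immature neurons, was at 1.31, 1.78 and 0.931 against 0.336, 0.532 and 0.516 CPM (-1.53 ± 0.31, adjusted p = 0.032). Mmp23 fell from 1.74, 1.31 and 1.95 to 0.601, 0.684 and 0.549 CPM (-1.44 ± 0.23, adjusted p = 0.019). Prss53 fell from 2.25, 1.69 and 2.19 to 0.841, 1.102 and 0.716 CPM (-1.20 ± 0.23, adjusted p = 0.029). Cpsf4l fell from 7.62, 10.6 and 10.8 to 3.87, 4.37 and 4.66 CPM (-1.17 ± 0.17, adjusted p = 0.015). No nuclei were named as immature neurons, and of 21 genes of immature neurons 3 were lower and none higher. Over all genes tested in all nuclei, 2.2% were lower and 3.41% higher. Beside Igfbpl1, Sox11 fell from 20.5, 24.8 and 24.9 to 12.7, 16.5 and 17.2 CPM (-0.60 ± 0.14, adjusted p = 0.046). Dpysl3 fell from 30.3, 35.8 and 29.4 to 20.6, 21.05 and 22.02 CPM (-0.59 ± 0.10, adjusted p = 0.020). Hao1 and Acsm3 passed in all 6 fits that left out 1 library. Cyp3a57, Crtam, C8b, Tnfrsf25, Igfbpl1, Mmp23, Prss53, Cpsf4l, Sox11 and Dpysl3 lost the call in at least 1 of these fits, without young replicate 2 (adjusted p = 0.067 to 0.15), young replicate 3 (0.058 to 0.15), aged replicate 1 (0.051 to 0.18), aged replicate 2 (0.051 to 0.078) or aged replicate 3 (0.055 to 0.080). Without doublets, Tnfrsf25 and Sox11 did not pass (adjusted p = 0.051 for both), and without the unnamed cluster of mixed neurons Igfbpl1 did not (0.11).

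Of 39 tested Wnt genes 4 were higher and 1 lower in excitatory neurons, where 3.16% of all genes tested were higher and 2.65% lower. The lower count is near that share. Wnt5a, a ligand of the non-canonical branch, was at 4.38, 3.13 and 3.18 CPM in the young libraries and 8.64, 7.91 and 8.42 CPM in the aged AAV-B3GNT3 libraries, a log2 difference of 1.22 ± 0.17 (SE, adjusted p = 0.0085). In striatal projection neurons it rose from 3.42, 2.34 and 2.805 to 10.6, 8.24 and 6.65 CPM (1.61 ± 0.34, adjusted p = 0.020). Wnt1 rose from 0.702, 0.4901 and 0.372 to 2.74, 1.22 and 3.404 CPM (2.23 ± 0.42, adjusted p = 0.021). Wnt10b rose from 1.65, 1.21 and 1.16 to 2.898, 3.52 and 3.02 CPM (1.23 ± 0.22, adjusted p = 0.018). The Wnt amplifier Rspo2 was lower, at 64.9, 64.8 and 51.04 against 27.5, 36.6 and 32.4 CPM (-0.90 ± 0.13, adjusted p = 0.0089). Wnt5a in striatal projection neurons did not pass with the sums thinned to 1 depth (adjusted p = 0.053). Wnt5a is among the 11 genes that the study named for the treatment. That list came from another contrast, aged AAV-B3GNT3 against aged AAV-EGFP, and was chosen in part on the aged AAV-B3GNT3 samples used here. Of its genes 1 was higher in each of these 2 neuron classes. Another, the small heat shock gene Cryab, which the study named for astrocytes, was lower in oligodendrocytes (83.5, 104 and 155 against 51.996, 74.2 and 60.01 CPM, -0.87 ± 0.21, adjusted p = 0.039). Rspo2 in excitatory neurons passed in all 6 fits that left out 1 library and did not pass in the largest excitatory cluster alone (-0.48, adjusted p = 0.10). Wnt5a, Wnt1 and Wnt10b in excitatory neurons, Wnt5a in striatal projection neurons, and Cryab in oligodendrocytes lost the call in at least 1 of these fits, without young replicate 2 (adjusted p = 0.086 to 0.13), young replicate 3 (0.054 to 0.099), aged replicate 1 (0.059 to 0.18) or aged replicate 3 (0.10). Cryab did not pass with free RNA subtracted (adjusted p = 0.076).

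Activity and receptor genes gave few or mostly lower calls in neurons. Of the listed immediate-early genes, 1 of 32 was lower in excitatory neurons, near the 2.65% of all genes tested there, 2 of 28 were lower in striatal projection neurons (2.24% of all genes), none of 26 passed in inhibitory neurons and none was higher in these classes. Homer1, a postsynaptic scaffold whose short form follows neuronal activity, fell in excitatory neurons from 597, 814 and 625 to 405, 449 and 409 CPM (-0.69 ± 0.12, adjusted p = 0.017). In all nuclei Npas4, an activity-dependent factor, was at 14.7, 12.4 and 14.7 against 7.86, 8.62 and 10.6 CPM (-0.62 ± 0.14, adjusted p = 0.044). There 3 of 32 immediate-early genes were lower and none higher, where 2.2% of all genes tested were lower. The NMDA receptor subunit Grin2b fell in excitatory neurons from 2061, 2146 and 2121 to 1452, 1644 and 1539 CPM (-0.45 ± 0.08, adjusted p = 0.021). Its partner Grin1 rose from 461, 399 and 427 to 618, 538 and 534 CPM (0.39 ± 0.09, adjusted p = 0.042). Glutamate receptor genes counted 1 higher and 4 lower of 24 in excitatory neurons, where 3.16% of all genes were higher and 2.65% lower, 1 higher and 2 lower of 21 in striatal projection neurons (1.81% and 2.24%) and 1 lower of 23 in inhibitory neurons (0.543%). For GABA receptor genes 1 of 15 was lower in excitatory neurons and none of 14 passed in inhibitory neurons. The interneuron genes Gad1, Sst and Pvalb did not pass. Gad1 was at 428, 387 and 375 against 345, 348 and 349 CPM (-0.19 ± 0.09, adjusted p = 0.30). Sst was at 29.6, 21.4 and 24.4 against 26.5, 30.5 and 31.4 CPM (0.23 ± 0.15, adjusted p = 0.51). Pvalb was at 20.8, 14.9 and 16.999 against 19.3, 14.7 and 15.1 CPM (-0.11 ± 0.18, adjusted p = 0.82). Homer1, Grin2b and Grin1 in excitatory neurons and Npas4 in all nuclei lost the call in at least 1 of the 6 fits that left out 1 library, without young replicate 1 (adjusted p = 0.066), young replicate 2 (0.079 to 0.16), young replicate 3 (0.056 to 0.16), aged replicate 1 (0.071 to 0.17), aged replicate 2 (0.054 to 0.097) or aged replicate 3 (0.052). Npas4 did not pass without doublets (adjusted p = 0.054).

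Some leading genes of inhibitory neurons and striatal projection neurons were shared with other classes. Npcd was higher in 5 classes and Arhgef33 in 4, and Khdrbs2 was lower in 5 and Zbtb40 in 4. Tcf7l1 was also lower in oligodendrocytes. After Npcd, the largest rises in inhibitory neurons were those of Acr and Itga11. Acr rose from 4.64, 2.898 and 2.22 to 15.8, 11.8 and 13.9 CPM (2.06 ± 0.27, adjusted p = 0.0065). The integrin Itga11 rose from 4.42, 4.68 and 3.94 to 12.3, 14.7 and 19.7 CPM (1.84 ± 0.24, adjusted p = 0.0065). Zbtb40 had the largest fall, from 20.8, 25.9 and 23.7 to 9.75, 9.43 and 11.1 CPM (-1.21 ± 0.16, adjusted p = 0.0082). The growth factor Pdgfc fell from 10.8, 14.04 and 15.5 to 4.75, 7.02 and 6.56 CPM (-1.12 ± 0.23, adjusted p = 0.037). The splicing factor Khdrbs2 fell from 109, 149.8 and 128 to 39.3, 86.4 and 66.4 CPM (-1.002 ± 0.21, adjusted p = 0.046). In striatal projection neurons Stat4, a cytokine-activated transcription factor (ENSMUSG00000062939, chr1:51987148-52107189, plus strand), was at 3.04, 3.25 and 1.402 CPM in the young libraries and 31.1, 23.8 and 29.01 CPM in the aged AAV-B3GNT3 libraries, 9.65-fold higher (log2 difference 3.27 ± 0.27, adjusted p = 8.7e-05). Arhgef33 rose from 13.3, 6.31 and 8.41 to 47.3, 37.4 and 33.2 CPM (2.13 ± 0.26, adjusted p = 0.0015). Tcf7l1 fell from 45.9, 21.5 and 21.7 to 11.2, 7.36 and 3.63 CPM (-2.004 ± 0.37, adjusted p = 0.011). The adenylyl cyclase Adcy8 fell from 15.9, 15.3 and 18.2 to 3.43, 7.65 and 5.44 CPM (-1.55 ± 0.28, adjusted p = 0.0097). The factor Etv1 fell from 22.8, 40.4 and 27.3 to 8.41, 15.005 and 8.46 CPM (-1.54 ± 0.27, adjusted p = 0.0090). Young replicate 3 held only 143 nuclei of this class. Acr in inhibitory neurons and Stat4, Arhgef33 and Tcf7l1 in striatal projection neurons passed in all 6 fits that left out 1 library. Itga11, Zbtb40, Pdgfc and Khdrbs2 in inhibitory neurons and Adcy8 and Etv1 in striatal projection neurons lost the call in at least 1 of these fits, without young replicate 2 (adjusted p = 0.055 to 0.14), young replicate 3 (0.050 to 0.21), aged replicate 1 (0.057 to 0.16), aged replicate 2 (0.070) or aged replicate 3 (0.067 to 0.068). At resolution 1.0 inhibitory neurons gave 15 calls, all among the 155, and Acr, Zbtb40, Pdgfc and Khdrbs2 did not pass (adjusted p = 0.052, 0.051, 0.21 and 0.11), with log2 differences of -1.18, -1.19 and -0.92 for the 3 falls. The class there held a cluster of 801 nuclei, 497 of them from young replicate 1, with leading genes of the unnamed mixed cluster. Its part in these losses was not tested. Pdgfc and Khdrbs2 did not pass either with free RNA subtracted (adjusted p = 0.051 and 0.20) or with the mixed neuron cluster kept (0.065 and 0.14).

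Further calls in astrocytes included transporters, receptors and a gene of striatal neurons. Cyp2j8, a cytochrome P450, rose from 12.8, 6.63 and 5.11 to 58.8, 49.5 and 48.2 CPM (2.61 ± 0.25, adjusted p = 0.00035). Grm3, the metabotropic glutamate receptor of astrocytes, fell from 1769.5, 1879 and 1660.4 to 743, 638 and 839.5 CPM (-1.26 ± 0.13, adjusted p = 0.00052). The bicarbonate transporter Slc4a4 fell from 2223, 2258 and 2551 to 1329, 1406 and 1447 CPM (-0.75 ± 0.12, adjusted p = 0.0037). The cystine transporter Slc7a11 fell from 345, 391 and 359 to 179.6, 224 and 178 CPM (-0.91 ± 0.13, adjusted p = 0.0017). Dapk2, a kinase of cell death, fell from 11.9, 13.5 and 22.4 to 2.44, 3.52 and 0.838 CPM (-2.64 ± 0.39, adjusted p = 0.0019). The semaphorin Sema5b, a guidance cue, fell from 30.7, 20.1 and 14.1 to 1.83, 8.299 and 7.96 CPM (-1.88 ± 0.39, adjusted p = 0.013). Pde10a, a phosphodiesterase of striatal neurons, fell from 1225, 919.96 and 1328 to 233, 454 and 161 CPM (-2.03 ± 0.28, adjusted p = 0.0015). The other 7 striatal neuron markers summed to 92.8, 98.2 and 73.4 CPM in the young libraries and 82.7, 100.5 and 83.1 CPM in the aged AAV-B3GNT3 libraries in these astrocyte sums, with overlap. The 9 excitatory neuron markers summed to 576, 504 and 523 CPM in the young libraries and 381, 464 and 403 CPM in the aged AAV-B3GNT3 libraries, without overlap. Beside these levels, 6 of 24 glutamate receptor genes, 4 of 15 GABA receptor genes and 5 of 27 immediate-early genes were lower in astrocytes and none higher, where 2.87% of all genes tested were lower. The part of neuronal RNA in these calls was not tested. With 10% of each sum subtracted as free RNA of the library, the 780 calls in astrocytes became 434, 429 of them among the 780. Pde10a, Grm3, Slc4a4, Slc7a11, Cyp2j8 and Dapk2 still passed, at adjusted p = 0.024, 0.0032, 0.011, 0.0073, 0.0032 and 0.011, and Sema5b did not (adjusted p = 0.057). All 7 passed within the larger finer cluster of astrocytes alone (adjusted p = 0.00014 to 0.028). Cyp2j8, Grm3, Slc4a4, Slc7a11, Dapk2, Sema5b and Pde10a passed in all 6 fits that left out 1 library.

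Brain endothelial cells, the class the virus was built to reach, held 64 to 123 nuclei per library and gave 5 calls. Kif23, a kinesin of cell division (ENSMUSG00000032254, chr9:61915905-61946774, minus strand), was at 23.95, 41.8 and 32.6 CPM in the young libraries and 171, 206 and 174 CPM in the aged AAV-B3GNT3 libraries, 5.61-fold higher (log2 difference 2.49 ± 0.33, adjusted p = 0.0014), from a mean of 7 UMIs per young library and 33.7 per aged AAV-B3GNT3 library. Ptprj, a receptor phosphatase, rose from 651, 386 and 500.4 to 1315, 1218 and 1044 CPM (1.21 ± 0.22, adjusted p = 0.026). Hmcn1, a matrix protein, fell from 1242, 1022 and 1267 to 336, 348 and 554 CPM (-1.52 ± 0.22, adjusted p = 0.0030). Vcl, the focal adhesion protein vinculin, fell from 339, 641 and 598 to 147, 201 and 238 CPM (-1.42 ± 0.26, adjusted p = 0.035). Ets1, an endothelial transcription factor, fell from 838, 785 and 794 to 307, 472 and 316 CPM (-1.13 ± 0.21, adjusted p = 0.035). None of 31 junction and transporter genes of the barrier passed. Cldn5, the main claudin, was at 671, 502 and 446 against 389, 421 and 683 CPM (-0.13 ± 0.24, adjusted p = 0.92). The glucose carrier Slc2a1 was at 743, 1013 and 1224 against 1274, 1273 and 1269 CPM (0.36 ± 0.20, adjusted p = 0.66). The efflux pump Abcb1a was at 846, 729 and 805 against 625, 572 and 593 CPM (-0.41 ± 0.19, adjusted p = 0.53). The lipid carrier Mfsd2a was at 152, 125 and 152 against 82.6, 133 and 90.2 CPM (-0.46 ± 0.28, adjusted p = 0.69). Kif23 passed in all 6 fits that left out 1 library. Ptprj, Hmcn1, Vcl and Ets1 lost the call in at least 1 of these fits, without young replicate 2 (adjusted p = 0.058 to 0.091), young replicate 3 (0.054), aged replicate 1 (0.15 to 0.31), aged replicate 2 (0.057 to 0.13) or aged replicate 3 (0.087). The groups overlapped for Cldn5 and Mfsd2a and not for Slc2a1 and Abcb1a, as for 692 of the 4703 genes tested here (14.7%), and at this depth differences of that size could not be told from the spread. With doublets kept 1 call was left, that of Kif23, and Ptprj, Hmcn1, Vcl and Ets1 did not pass (adjusted p = 0.087, 0.066, 0.10 and 0.087). With free RNA subtracted Kif23 and Hmcn1 passed, and Ptprj, Vcl and Ets1 did not (adjusted p = 0.078, 0.12 and 0.12). With no upper limit on genes these 3 did not pass (adjusted p = 0.058 for each). Thinning the sums to 1 depth kept 3 of the 5 calls, and clustering at resolution 1.0 kept 4.

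Genes of O-glycan synthesis, the pathway of the delivered enzyme, gave no call among 14 tested in brain endothelial cells. Of all 4703 genes tested there, 0.0425% were higher and 0.0638% lower. With so few calls, none among 14 does not show that these genes matched young. C1galt1, which builds core 1, was at 67.9, 41.8 and 59.8 against 64.9, 45.8 and 64.4 CPM (0.02 ± 0.39, adjusted p = 0.99). Galnt1, which starts the chains, was at 224, 149 and 147 against 159, 197 and 161 CPM (-0.01 ± 0.26, adjusted p = 0.99). Podxl, a sialomucin of the endothelial surface, was at 491, 329.9 and 267 against 513, 563 and 528 CPM (0.55 ± 0.23, adjusted p = 0.45) and did not pass. In other classes the list had 1 higher and 3 lower of 27 in excitatory neurons, 3 lower of 21 in astrocytes, 2 higher of 25 in oligodendrocytes and 2 higher of 31 in all nuclei. Over all genes tested, 3.16% were higher and 2.65% lower in excitatory neurons and 2.87% lower in astrocytes. Higher were 2.28% in oligodendrocytes and 3.41% in all nuclei. St3gal1, a core 1 sialyltransferase, rose in oligodendrocytes from 19.9, 16.4 and 8.55 to 35.3, 29.6 and 47.1 CPM (1.29 ± 0.26, adjusted p = 0.020). In excitatory neurons it fell from 19.7, 13.7 and 14.02 to 6.55, 10.9 and 8.53 CPM (-0.86 ± 0.21, adjusted p = 0.044). St6galnac5 fell in astrocytes from 539, 369 and 407 to 230.2, 282 and 215 CPM (-0.85 ± 0.16, adjusted p = 0.0076). Heparan sulfate genes, the other sugar coat of cells, had calls in several classes: 6 lower of 39 in all nuclei, 1 higher and 7 lower of 35 in astrocytes, 4 lower of 37 in excitatory neurons and 4 lower of 30 in striatal projection neurons. The lower shares over all genes tested were 2.2%, 2.87%, 2.65% and 2.24% in that order, and 3.2% were higher in astrocytes. The sulfotransferase Hs3st5 fell in all nuclei from 117, 136 and 115 to 61.6, 63.5 and 59.4 CPM (-0.997 ± 0.09, adjusted p = 0.0036). In striatal projection neurons it fell from 379, 353 and 358 to 176, 191 and 165 CPM (-1.04 ± 0.11, adjusted p = 0.00075). The polymerase Ext1 fell in striatal projection neurons from 414, 464 and 513 to 258, 305 and 261 CPM (-0.75 ± 0.12, adjusted p = 0.0050). Hs3st5 in all nuclei, Hs3st5 and Ext1 in striatal projection neurons, and St6galnac5 in astrocytes passed in all 6 fits that left out 1 library. St3gal1 in oligodendrocytes and St3gal1 in excitatory neurons lost the call in at least 1 of these fits, without young replicate 1 (adjusted p = 0.079), young replicate 2 (0.080 to 0.096), young replicate 3 (0.12), aged replicate 1 (0.060 to 0.13) or aged replicate 3 (0.061 to 0.087). St3gal1 did not pass within the Opalin cluster of oligodendrocytes alone (adjusted p = 0.066), nor in excitatory neurons thinned to 1 depth (0.068).

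Pericytes, which wrap capillaries, and fibroblasts of the meninges and vessels had 23 and 64 calls. In pericytes Creb5, a transcription factor, was at 214, 80.4 and 74.9 CPM in the young libraries and 873, 744 and 369.8 CPM in the aged AAV-B3GNT3 libraries, a log2 difference of 2.36 ± 0.32 (SE, adjusted p = 0.0011). Timp3, an inhibitor of metalloproteinases, rose from 49.99, 80.4 and 105 to 376, 221 and 247 CPM (1.89 ± 0.28, adjusted p = 0.0018). Col4a4, a basement membrane collagen, rose from 89.3, 48.3 and 54.9 to 205, 172 and 205 CPM (1.53 ± 0.27, adjusted p = 0.0086). Dcc, a guidance receptor of neurons, fell from 321, 708 and 399.5 to 129, 233 and 235 CPM (-1.25 ± 0.27, adjusted p = 0.034). The sulfotransferase Hs6st2 fell from 107, 123 and 99.9 to 16.7, 34.3 and 29.4 CPM (-2.01 ± 0.36, adjusted p = 0.0086). In fibroblasts Ankfn1 rose from 9.15, 28.3 and 31.6 to 165, 120.4 and 116 CPM (2.55 ± 0.30, adjusted p = 0.0023). Strip2 rose from 24.8, 6.74 and 13.5 to 78.99, 65.2 and 63.4 CPM (2.18 ± 0.33, adjusted p = 0.010). The metalloproteinase Adamts12 fell from 309.7, 201 and 284 to 73.2, 55.2 and 160.3 CPM (-1.51 ± 0.29, adjusted p = 0.025). The transporter Slc22a4 fell from 87.6, 64.7 and 82.7 to 25.9, 32.04 and 36.998 CPM (-1.31 ± 0.23, adjusted p = 0.018). Of the Wnt inhibitors, Dkk3 fell from 87.6, 115 and 117 to 50.3, 53.03 and 54.6 CPM (-1.01 ± 0.20, adjusted p = 0.026). Notum fell from 45.7, 43.2 and 46.6 to 12.9, 18.8 and 22.9 CPM (-1.32 ± 0.28, adjusted p = 0.044). Creb5 and Timp3 in pericytes and Ankfn1 in fibroblasts passed in all 6 fits that left out 1 library. Col4a4, Dcc and Hs6st2 in pericytes and Strip2, Adamts12, Slc22a4, Dkk3 and Notum in fibroblasts lost the call in at least 1 of these fits, without young replicate 2 (adjusted p = 0.065 to 0.19), young replicate 3 (0.067 to 0.11), aged replicate 1 (0.081 to 0.29), aged replicate 2 (0.063 to 0.090) or aged replicate 3 (0.052 to 0.090). Markers of excitatory neurons in the pericyte sums, at 645, 787 and 674 against 449, 578 and 491 CPM, moved with Dcc, and their part in its fall was not tested. With free RNA subtracted Dcc did not pass (adjusted p = 0.12), and 5 of the 64 calls in fibroblasts were left. Ankfn1 passed there (adjusted p = 0.049), while Strip2, Adamts12, Slc22a4, Dkk3 and Notum did not (0.057, 0.098, 0.057, 0.059 and 0.098). With doublets kept Dcc (adjusted p = 0.088), Adamts12 (0.065) and Notum (0.16) did not pass. Of the 23 calls in pericytes, 14 held in the same direction with doublets kept. By DESeq2 9 of them held, among 7 higher and 31 lower genes.

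Whether a class differed from excitatory neurons in its response was tested on the per-library differences between classes by limma. Oligodendrocytes had 27 genes of 12663 past the threshold (0.213%), 18 of them with the larger value in oligodendrocytes, and astrocytes 5 of 12534 (0.0399%). None of 7818 passed for microglia (0.0%, 982 at an unadjusted p under 0.05) and none of 12615 for inhibitory neurons (0.0%, 1201). Thsd4, a matrix protein of microfibrils, was called in opposite directions, at 115, 113 and 137 CPM in the young libraries and 217, 193 and 254 CPM in the aged AAV-B3GNT3 libraries in oligodendrocytes (0.86 ± 0.13, adjusted p = 0.0051). It was at 64.5, 59.1 and 64.7 against 40.7, 47.9 and 44.2 CPM in excitatory neurons (-0.50 ± 0.09, adjusted p = 0.018). The predicted gene Gm13052 was at 9.604, 14.5 and 14.4 against 63.01, 65.2 and 23.5 CPM in oligodendrocytes (1.98 ± 0.35, adjusted p = 0.011). It was at 41.02, 36.8 and 41.7 against 24.1, 27.3 and 18.1 CPM in excitatory neurons (-0.78 ± 0.15, adjusted p = 0.020). Without 1 library these tests gave 0 to 9 genes for oligodendrocytes, 9 without young replicate 1 and 0 without any other, and 0 to 1 for astrocytes, 1 without young replicate 2 and 0 without any other. Thsd4 in oligodendrocytes passed in all 6 fits that left out 1 library. Thsd4 and Gm13052 in excitatory neurons and Gm13052 in oligodendrocytes lost the call in at least 1 of these fits, without young replicate 2 (adjusted p = 0.051 to 0.057), young replicate 3 (0.090 to 0.098) or aged replicate 1 (0.068 to 0.081). In the largest excitatory cluster alone Thsd4 did not pass (adjusted p = 0.30), and within the Opalin cluster of oligodendrocytes its log2 difference was 1.35 (adjusted p = 0.00056).

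The other lists held few calls. Ribosomal protein genes counted none of 84 in all nuclei, nuclear oxidative phosphorylation genes none of 79 and haemoglobin genes none of 3, and mitochondrial genome genes none of 13. In all nuclei, potassium channel genes had 3 higher and 1 lower of 82, collagen and laminin genes 2 higher and 1 lower of 54, active zone and synaptic adhesion genes 2 lower of 27, neuropeptide and granin genes 1 lower of 28 and perineuronal net genes 1 lower of 23. Lipid transport genes had 3 higher and 1 lower of 25, insulin and FOXO signalling genes 1 lower of 29, nuclear long noncoding RNAs 2 lower of 10, proliferation genes 1 higher of 23 and astrocyte transport genes 1 higher of 21. Cyclin, kinase inhibitor and senescence genes had none of 21. These shares were read against the 3.41% higher and 2.2% lower of all genes tested in all nuclei.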

How the data were processed

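Single-nucleus RNA-seq libraries (10x Genomics 3′ chemistry) came from FACS-sorted nuclei of pooled cortex and hippocampus. The authors deposited raw UMI count matrices of 31053 genes on mm10 after cell calling by Cell Ranger (version 4.0.0 in the submitters' processing notes, 7.2.0 in the matrix headers). Whether intronic reads and strand were counted is not given in the sources used here.

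Nuclei were retained with 200 to 5000 genes and no more than 10% mitochondrial UMIs, likely doublets were removed by similarity to simulated doublets at 0.8% per 1000 barcodes, and nuclei were clustered on 15 principal components with leidenalg 0.10.2 at resolution 0.3. A cluster took a class name from at least 3 markers. Counts were summed per library, over all nuclei in limits and, after doublet removal, per class with at least 10 nuclei in each library. Sums were tested in edgeR 4.0.16 (filterByExpr, minimum count 10, TMM over the tested genes, quasi-likelihood F test, 6 libraries, no covariate), class differences in limma 3.58.1 and shares by exact permutation. DESeq2 1.42.0 and the other settings of the closing section were alternatives. The edgeR fit was tested on simulated counts. Named genes were the largest rises and falls per class (5 each in all nuclei, excitatory neurons and oligodendrocytes, 2 each in pericytes and fibroblasts, otherwise 3 each) with an adjusted p under 0.05, a mean of 50 counts in a group and no overlap, the 10 genes called in most classes, genes called in opposite directions, and called members of 35 gene lists. Uncalled genes shown for their level, and which called list members were described, were chosen after their values were seen, and some are not reported here. The classes, lists and genes were chosen with earlier results of these data known. Each library was 1 mouse. UMI totals of 38378227 to 67716623 per library, and as few as 176196 in brain endothelial cells, set the precision, and the limit for a count of 0 was 3 counts and covers counting error only.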

Additional observations from a re-analysis of the deposited data

Results flagged for a closer look

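The group effect differed between 2 cell classes for 32 genes, each past an adjusted p of 0.05 in limma on the per-library log2 differences between the classes. Values in parentheses are the effect (aged AAV-B3GNT3 minus young, log2) in the first class minus that in excitatory neurons. In oligodendrocytes against excitatory neurons the value was positive for Tmem132b (0.9237), Gm29361 (0.9268), Map3k5 (0.929), Gm2164 (1.152), Kcnab1 (1.306), Farp1 (1.315), Sema3e (1.329), Thsd4 (1.36), Gpatch4 (1.628), Garnl3 (1.636), Ogdhl (1.68), Gm30122 (1.692), Tmem150c (1.826), Fanca (1.966), Aldh1l1 (2.082), Lipc (2.355), Gm13052 (2.626) and Vav2 (2.835). It was negative for Zfp41 (-1.713), Gm2087 (-1.712), Diaph3 (-1.583), Nckap5 (-1.546), Gm14820 (-1.308), Spats1 (-1.187), Zfp395 (-1.115), Tspan9 (-1.054) and Gm16124 (-0.9363). Aldh1l1 encodes a folate enzyme used as an astrocyte marker, Vav2 and Farp1 encode exchange factors for small GTPases, Lipc a lipase, Sema3e a guidance cue, Diaph3 a formin and Kcnab1 a potassium channel subunit. In astrocytes against excitatory neurons the value was positive for Otud7a (1.127), 4930415C11Rik (1.702) and 2700089I24Rik (2.697) and negative for Gm29266 (-2.178) and Eepd1 (-1.479). Without 1 library at most 9 genes passed for oligodendrocytes (without young replicate 1, 0 without any other) and at most 1 for astrocytes (without young replicate 2, 0 without any other). With the replicate number as a block 0 genes passed for either pair. Zfp41, Gm14820, Zfp395, Gm16124, Gm29361 and Gm30122 were called neither in oligodendrocytes nor in excitatory neurons by edgeR. Lipc was near the floor in young oligodendrocytes, at 0.362, 0.235 and 0.0 CPM.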

How the results depend on the processing

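Of the alternatives other than leaving out a library, 74 of 114 counts of called genes stayed within 1.5 times the count reported, and 2 called values changed direction, those of Mbp in oligodendrocyte precursors, to a log2 difference of 0.062 with clustering at resolution 1.0, and of Grik1 in oligodendrocytes, to 0.29 within their largest cluster at that resolution. DESeq2 called 2020 genes in all nuclei (1071 reported), 261 in inhibitory neurons (155), 295 in microglia (0), 16 in brain endothelial cells (5) and 38 in pericytes (23). With no filter on low counts there were 732 in inhibitory neurons, 1028 in striatal projection neurons (464), 1408 in astrocytes (780), 1336 in oligodendrocytes (525), 668 in oligodendrocyte precursors (142), 805 in microglia, 42 in brain endothelial cells, 112 in pericytes, 341 in fibroblasts (64) and 871 list members over all classes (323). With 10% of each sum subtracted as free RNA the counts were 434 for astrocytes, 297 for oligodendrocytes, 100 for inhibitory neurons, 41 in oligodendrocyte precursors, 2 in brain endothelial cells, 14 in pericytes, 5 in fibroblasts and 200 list members. Thinning gave 300 in striatal projection neurons, 3 in brain endothelial cells and 51 in pericytes. Keeping doublets gave 22 in oligodendrocyte precursors, 52 in microglia, 1 in brain endothelial cells, 46 in pericytes and 40 in fibroblasts, and lifting the upper limit on genes gave 46 in microglia and 2 in brain endothelial cells. Clustering at resolution 1.0 gave 15 in inhibitory neurons and 8 in brain endothelial cells, and moved the inhibitory share difference to -1.339 percentage points (-0.00903 reported). At that resolution the inhibitory class held a cluster of 801 nuclei, 497 of them from young replicate 1. Cpa6, Lgr5 and Adamts19 were among the leading genes of both this cluster and the unnamed mixed cluster. Keeping the mixed neuron cluster, an alternative chosen after seeing the data, gave 43 in inhibitory neurons. Testing only the largest cluster of astrocytes or oligodendrocytes at resolution 1.0, also chosen after seeing the data, gave 730 and 489. The cause of these moves was not tested.

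The replicate numbers of the 2 groups paired no animals, and whether libraries of the same number were handled together is not given in the sources used here. Same-number correlations ran from -0.211 to 0.405, with 13 of 33 over 0.1. With the replicate number as a block there were 353 calls in inhibitory neurons, 790 in striatal projection neurons, 335 in oligodendrocyte precursors, 569 in microglia, 122 in pericytes, 128 in fibroblasts and 524 list members, and 0 for both class differences. In 19 of the 33 comparisons a young library was best matched by its own number. The 33 reuse the same 6 libraries over all nuclei and the 10 classes, so they are not independent.

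Leaving out 1 library gave 13 to 476 calls in inhibitory neurons, 90 to 835 in striatal projection neurons, 0 to 756 in oligodendrocyte precursors, 0 to 1225 in microglia, 1 to 32 in brain endothelial cells, 5 to 69 in pericytes, 1 to 186 in fibroblasts and 71 to 620 list members, beside 59 to 1679 in all nuclei, 42 to 1197 in excitatory neurons, 216 to 850 in astrocytes and 141 to 860 in oligodendrocytes. The class differences ran from 0 to 9 for oligodendrocytes and from 0 to 1 for astrocytes. Of the named genes' values under the other alternatives, 4736 kept their side of the threshold, 484 fell below it, 2 rose above it and 2 changed direction, and in the fits that left out 1 library 1582 kept theirs, 1441 fell below it and 1 rose above it. With 3 mice per group, 64 to 144 nuclei per library in brain endothelial cells and pericytes, and 1460 microglial genes at an unadjusted p under 0.05, a missed threshold does not show that values did not differ.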
